A study of Mus musculus with 5 samples.

Results

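The genes described here encode the stress sensors, chaperones and quality-control machinery of the endoplasmic reticulum (ER) that are regulated as the unfolded protein response (UPR). They were taken by gene symbol from a fixed list and not by a rule on their measured values. Earlier results of these data were known when the list was chosen. All 34 listed genes were present among the 55573 genes of the count table. Of these, 33 could be tested, and Derl3 could not because it had a single read in all 5 libraries together. The sequenced RNA came from a neuroblastoma line of the mouse, Neuro-2A (N2A). Cells of the control group (siCtl, n = 2, replicates 1 and 3) received 60 pmol of the non-targeting siRNA Silencer Negative Control #1. Cells of the knockdown group (siUpf1, n = 3, replicates 1, 2 and 3) received 60 pmol of an siRNA against Upf1, the RNA helicase on which nonsense-mediated mRNA decay (NMD) depends. Both groups carry the transfection, and a transient siRNA lowers its target without removing it. The GEO labels do not say that the libraries came from separate cultures, so p-values measure the spread between these samples, which may be technical.

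Secreted and membrane proteins fold inside the ER with the help of chaperones and enzymes that form disulfide bonds. When unfolded proteins accumulate there, the membrane sensors ATF6, IRE1 (encoded by Ern1) and PERK (encoded by Eif2ak3) signal to the nucleus and to the ribosome. ATF6 is cut in the Golgi to release a transcription factor, IRE1 splices Xbp1 mRNA so that it encodes another, and PERK phosphorylates eIF2α, which lowers translation and raises ATF4. Targets of these factors include chaperones such as BiP (encoded by Hspa5) and the ER-associated degradation (ERAD) machinery that extracts misfolded proteins for the proteasome. Cells with a large secretory load, neurons and neuroendocrine cells among them, rely on this system.

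The libraries held between 20402205 and 27717594 assigned reads. Upf1 itself (ENSMUSG00000058301.8) had 5217 and 5243 normalized read counts in siCtl and 2403, 2496 and 2449 in siUpf1, or 46.8% of siCtl (DESeq2 log2 fold change -1.10 ± 0.051 SE, adjusted p = 7.09e-101). All 10 neuroblastoma and neuronal markers examined were present, the lowest with a mean of 657 normalized counts. Their summed level was 46521 to 46770 in siCtl and 53143 to 56137 in siUpf1, and 7 were called higher and 2 lower. Markers of other cell types were lower than each of these 10, with the glial markers highest in sum, and none was called. The summed levels were at most 6.60 for macrophages (4 genes), 48.1 for epithelium (4), 92.9 for fibroblasts (4, Lum at 0) and 560 for glia (5). Reads of mitochondrial genes were 2.47% to 2.63% of siCtl and 2.85% to 3.00% of siUpf1 libraries. The part of these shifts in the results given here was not tested. In a cell population, fewer cells with an mRNA and less of that mRNA per cell cannot be told apart.

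The UPR genes moved in both directions and by small amounts after Upf1 knockdown. By DESeq2 at an adjusted p under 0.05, 17 of the 33 tested genes were called, 7 higher and 10 lower in siUpf1. That is 51.5%, beside 44.9% of all 15191 genes tested, of which 22.0% were called higher and 22.9% lower. The groups did not overlap at 26 of the 33 genes (78.8%), beside 69.4% of all genes tested, so both shares lay near the background. The log2 fold changes (siUpf1 over siCtl) ran from -0.48 (Ero1l) to 0.66 (Sel1l), with a median of -0.04, against -0.00239 over all genes. Among called genes the median absolute log2 fold change was 0.28 for the UPR genes and 0.43 for all genes. Smaller changes can be called at higher read counts, and these shares and medians were not matched for level. The median over the 33 genes was -0.07, -0.03 and -0.06 in the 3 siUpf1 libraries, relative to the siCtl mean. Of the functional classes described next, the HSP70 and HSP90 chaperone system and the ERAD genes held calls in both directions.

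**Figure D1:**
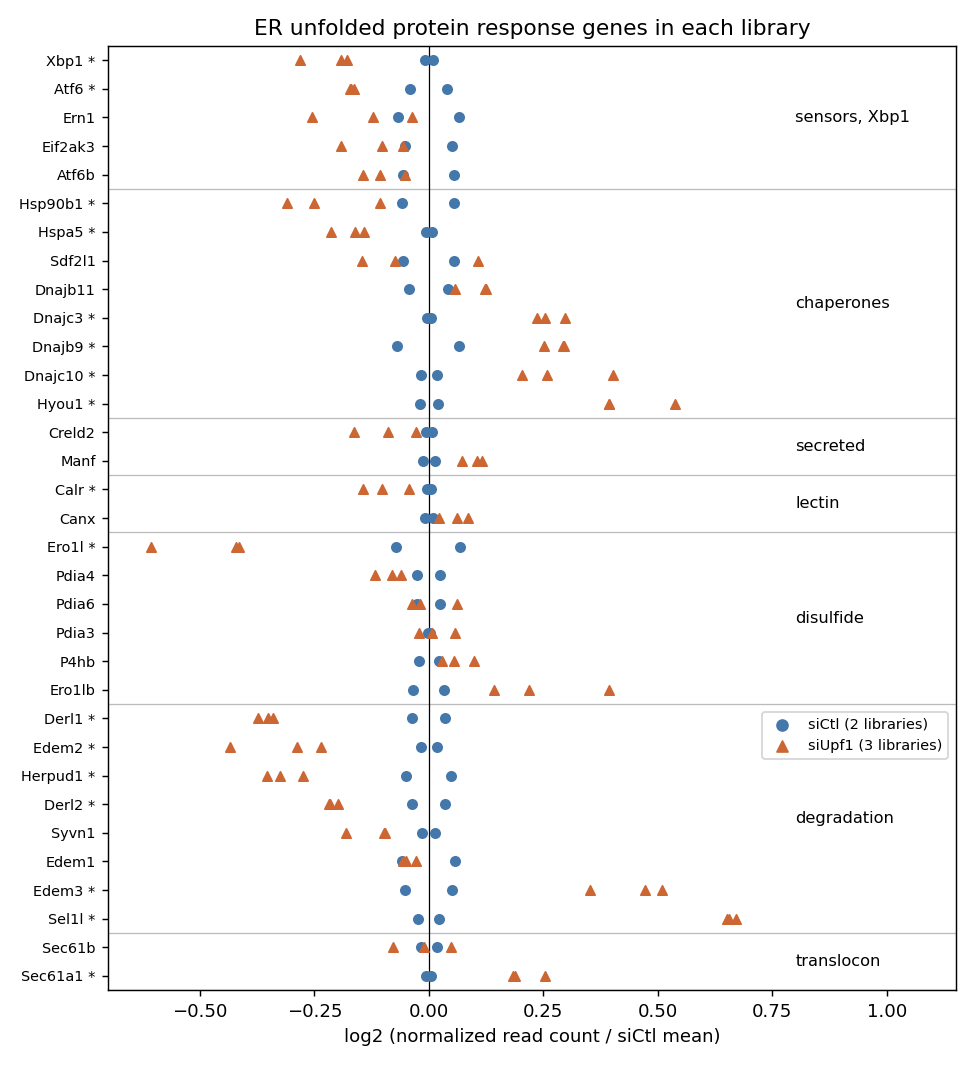
Normalized read count of each tested UPR gene in each library, as log2 of its ratio to the siCtl mean (horizontal axis), with genes grouped by role; circles are the 2 siCtl and triangles the 3 siUpf1 libraries, and an asterisk marks genes called by DESeq2 at an adjusted p under 0.05. The triangles of Sel1l, Edem3 and Hyou1 lie to the right of the circles and those of Ero1l, Derl1, Herpud1 and Edem2 to the left, while most other genes stay within 0.3 of the siCtl mean.

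The abundance of these mRNAs in control cells spanned more than the changes did. On the scale of normalized read counts per kb of exon, the highest siCtl levels were those of Calr (6468 ± 30.4, SD, n = 2), Hspa5 (5406 ± 37.7), Hsp90b1 (5148 ± 287), P4hb (4839 ± 106) and Canx (4636 ± 41.1). These are the lumenal calcium-binding lectin chaperone calreticulin, BiP, the HSP90 paralog GRP94, protein disulfide isomerase and the membrane lectin chaperone calnexin. The levels of Hspa5 and Hsp90b1 differed by less than the SD of Hsp90b1, so their order was not resolved. In siUpf1 the per-kb levels were 6052 ± 213 for Calr, 5047 ± 124 for P4hb, 4822 ± 108 for Canx, 4799 ± 123 for Hspa5 and 4419 ± 323 for Hsp90b1 (n = 3). By group means, BiP and GRP94 mRNAs stood above those of protein disulfide isomerase and calnexin in siCtl and not in siUpf1. The gaps were small. In siCtl, Hsp90b1 and P4hb differed by little more than the SD of Hsp90b1, and in siUpf1 Canx and Hspa5 differed by less than their SDs. P4hb and Canx were not called as changed. At the other end were the sensor kinase gene Eif2ak3 (169 ± 8.53), the ERAD gene Derl2 (149 ± 5.24) and the oxidase gene Ero1lb (15.4 ± 0.512) in siCtl. Derl3, a derlin, had 1 read in siCtl replicate 1 and none in the other libraries, and no fold is given, since both groups are at or under a floor of 3 counts per library. Exon length was that of all annotated exons of a gene, which can exceed the isoforms that N2A cells use.

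**Figure D2:**
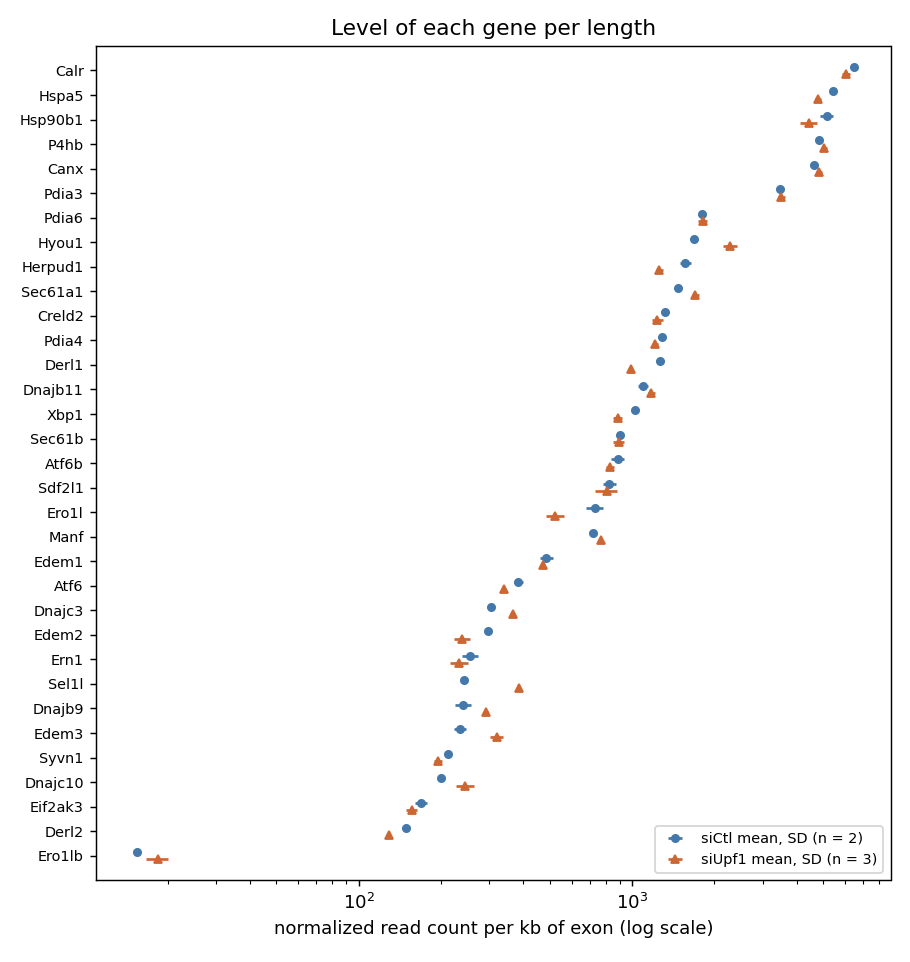
Mean normalized read count per kb of annotated exon (logarithmic horizontal axis) of the 33 tested UPR genes, ordered by siCtl level; circles are siCtl (n = 2), triangles siUpf1 (n = 3) and bars the SD. Levels in siCtl run from 15.4 for Ero1lb to 6468 for Calr, and the displacement between circle and triangle is widest for Sel1l, Ero1l, Edem3 and Hyou1.

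Among the stress sensors and Xbp1, none was called higher, 2 of 5 were called lower (Xbp1 and Atf6) and 3 were not called. That is 40% called, beside 44.9% of all genes tested, of which 22.0% were higher and 22.9% lower. Xbp1 (ENSMUSG00000020484.18, chromosome 11, 5520659 to 5525893 of GRCm38), which encodes the transcription factor downstream of IRE1, had 3358 and 3317 normalized counts in siCtl and 2947, 2923 and 2745 in siUpf1. The groups were apart, and the siUpf1 level was 86.0% of siCtl (DESeq2 log2 fold change -0.22 ± 0.056 SE, adjusted p = 3.51e-04). Counts per gene do not separate spliced from unspliced Xbp1 mRNA, so the activity of IRE1 cannot be read from them. Atf6 (chromosome 1, 170704674 to 170867771) had 3635 and 3441 normalized counts in siCtl and 3161, 3144 and 3139 in siUpf1. Its siUpf1 libraries were nearly equal and below both control libraries (DESeq2 log2 fold change -0.17 ± 0.053 SE, adjusted p = 0.0043), but without siCtl replicate 1 the adjusted p was 0.169.

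The other sensors were not called. Ern1, the kinase and endoribonuclease IRE1, had 2186 and 1993 normalized counts in siCtl and 1750, 1920 and 2035 in siUpf1. Its groups overlapped (log2 fold change -0.14, DESeq2 adjusted p = 0.129). Eif2ak3, the eIF2α kinase PERK, had 1058 and 985 in siCtl and 894, 981 and 952 in siUpf1. The siUpf1 libraries were all lower, although the highest of them nearly reached siCtl replicate 3 (log2 fold change -0.12, DESeq2 adjusted p = 0.27). Atf6b, the paralog of Atf6, had 2354 and 2541 in siCtl and 2216, 2362 and 2271 in siUpf1. Its groups overlapped by a single library (log2 fold change -0.10, DESeq2 adjusted p = 0.177).

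The ER stress element, bound by ATF6 together with the CCAAT-binding factor NF-Y, consists of CCAAT, a spacer of 9 bases and CCACG (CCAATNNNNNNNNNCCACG). It was searched on both strands from 250 bases before to 50 bases after the transcription start in the RefSeq promoter sequences of GRCm38.p6, together with the related element II (ATTGG, 1 base of any kind, CCACG) and the XBP1-type element TGACGTGG. A promoter sequence was given for 29 of the 34 genes and not used for Atf6, Derl1, Hyou1, Manf and Sec61a1. Of the 29, 10 genes (34.5%) held the ER stress element, against 37 of 27025 genes over all promoters (0.137%). The 37 include these 10. The genes were listed as members of the UPR, of which ATF6 is a sensor, so the higher share follows from the choice of list and is no test. Element II was present in Herpud1 and Dnajb11, against 12 genes over all promoters (0.0444%). TGACGTGG was present in none of the 29, against 0.714% of all genes. Such a match is a description of the sequence and not a measured binding site. The matches upstream of the start are printed on the strand of the gene, 5′ to 3′, because they are what many of these genes share in sequence, and capitals mark the element with its spacer.
Hspa5, chr2:34772020-34772048, plus strand: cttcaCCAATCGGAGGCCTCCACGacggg
Hsp90b1, distal, chr10:86705633-86705661, minus strand: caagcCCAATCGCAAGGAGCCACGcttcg
Hsp90b1, proximal, chr10:86705528-86705556, minus strand: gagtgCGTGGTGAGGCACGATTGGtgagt
Calr, chr8:84847070-84847098, minus strand: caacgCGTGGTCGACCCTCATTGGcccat
Canx, chr11:50325795-50325823, minus strand: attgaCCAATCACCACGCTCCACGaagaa
Pdia6, chr12:17266486-17266514, plus strand: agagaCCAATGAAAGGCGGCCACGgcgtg
Dnajc3, chr14:118937822-118937850, plus strand: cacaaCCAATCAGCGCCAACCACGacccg
Creld2, chr15:88819515-88819543, plus strand: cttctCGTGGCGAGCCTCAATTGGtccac
Syvn1, chr19:6046527-6046555, plus strand: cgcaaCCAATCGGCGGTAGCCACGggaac
Ero1lb, chr13:12565677-12565705, plus strand: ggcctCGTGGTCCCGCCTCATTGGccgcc
Derl3, chr10:75893237-75893265, plus strand: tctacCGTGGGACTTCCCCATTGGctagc
Herpud1, element II, chr8:94386372-94386392, plus strand: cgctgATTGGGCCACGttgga

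The elements lay between positions -212 and -26 from the transcription start, except the element II of Dnajb11, which lay downstream of it. Genes with an element did not share a direction. Of the 11 tested genes with either element, 1 was called higher (Dnajc3) and 4 lower (Hspa5, Hsp90b1, Calr and Herpud1), with a median log2 fold change of -0.10. The calls of Hsp90b1 and Calr were lost when some library was left out. Of the 17 tested genes whose promoter sequence held neither element, 4 were called higher and 4 lower, with a median of -0.04. Of the 5 genes without a promoter sequence here, 2 were called higher and 2 lower, with a median of 0.10. Over all genes tested, 44.9% were called, 22.0% higher and 22.9% lower. In either direction, 5 of 11 genes with an element and 8 of 17 without were called, both near that share. By direction, higher calls were fewer and lower calls more frequent among the 11 than over all genes. Of the 5 genes without a promoter sequence, 4 were called. These sets are small. The difference between these sets of UPR genes was not tested.

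**Figure D3:**
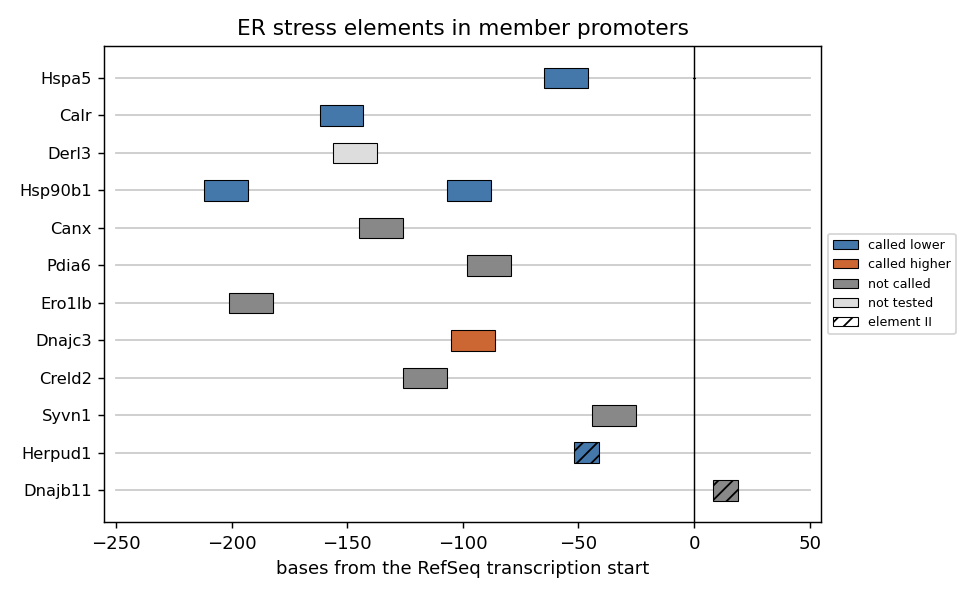
Position of each ER stress element (solid boxes) and element II (hatched boxes) in the promoters of UPR genes, in bases from the RefSeq transcription start on the horizontal axis; each line is 1 gene and the color of a box gives the call of the gene in siUpf1 against siCtl. Boxes lie at various distances upstream, Hsp90b1 has 2, and blue (lower), orange (higher) and gray (not called) boxes occur together.

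In the HSP70 and HSP90 chaperone system, 4 of 8 genes were called higher and 2 lower, beside 22.0% and 22.9% of all genes tested. The chaperone genes Hspa5 and Hsp90b1 were lower, and Hyou1, Dnajc3, Dnajc10 and Dnajb9, genes of their partners, were higher. Of these 6, only Hyou1 kept its call under every alternative processing described below. Hspa5 and Dnajc3 lost theirs with the replicate number as a factor (DESeq2 adjusted p = 0.0698 and 0.0653). Hspa5, which encodes BiP, had 22976 and 22751 normalized counts in siCtl and 20728, 20440.1 and 19720 in siUpf1. Every siUpf1 library was lower, by a small and even amount to 88.8% of siCtl (DESeq2 log2 fold change -0.17 ± 0.038 SE, adjusted p = 3.26e-05). Hsp90b1, which encodes GRP94, had 19939.6 and 21577 in siCtl and 19266, 17435 and 16749 in siUpf1. Its libraries were spread more widely, with siUpf1 replicate 1 close to siCtl replicate 1 (DESeq2 log2 fold change -0.22 ± 0.055 SE, adjusted p = 2.49e-04). The call of Hsp90b1 was lost without siCtl replicate 3 (adjusted p = 0.0673) and without siUpf1 replicate 2 (adjusted p = 0.155). Of its exon length, 3.30% overlapped another gene annotated on the same strand.

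Hyou1 rose most in this class. It encodes GRP170, a large HSP70 relative that exchanges the nucleotide of BiP, and had 12005 and 12324 normalized counts in siCtl and 15986, 17653 and 15978 in siUpf1. The groups were far apart relative to their spread, and the siUpf1 level was 136% of siCtl (DESeq2 log2 fold change 0.44 ± 0.049 SE, adjusted p = 1.58e-18). The J-domain co-chaperones, which stimulate the ATPase of BiP and direct it to clients, also moved upward where they were called. Dnajc3, known as p58IPK, had 1569 and 1559.5 in siCtl and 1924, 1865 and 1843 in siUpf1. All siUpf1 libraries were above siCtl (DESeq2 log2 fold change 0.26 ± 0.065 SE, adjusted p = 1.78e-04). Dnajc10, the disulfide reductase ERdj5, had 1016 and 992 in siCtl and 1326, 1156 and 1200 in siUpf1. The siUpf1 libraries were higher but uneven (DESeq2 log2 fold change 0.29 ± 0.083 SE, adjusted p = 0.0014), and without siCtl replicate 3 the adjusted p was 0.0615.

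Dnajb9, which encodes the IRE1 repressor ERdj4, had 642 and 584 normalized counts in siCtl and 752, 729 and 751 in siUpf1. The siUpf1 libraries were close together and higher (DESeq2 log2 fold change 0.28 ± 0.096 SE, adjusted p = 0.00913). Its call was lost without siCtl replicate 3 (adjusted p = 0.227) and without siUpf1 replicate 3 (adjusted p = 0.0567). The co-chaperone gene Dnajb11 (ERdj3) was not called, with a log2 fold change of 0.10 (DESeq2 adjusted p = 0.114), nor was its partner Sdf2l1, with -0.04 (adjusted p = 0.785).

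The lectin chaperones hold glycoproteins in the folding cycle. Calr had 18566 and 18690.4 normalized counts in siCtl and 17349, 18079 and 16862 in siUpf1. The shift was small (DESeq2 log2 fold change -0.10 ± 0.041 SE, adjusted p = 0.0428). It was not called by edgeR, and it was lost without either siCtl replicate (adjusted p = 0.171 without replicate 1 and 0.223 without replicate 3) and without siUpf1 replicate 1 (0.0781) or 3 (0.215). Canx had a log2 fold change of 0.06 (DESeq2 adjusted p = 0.221). The cysteine-rich secreted ER proteins Manf, a neurotrophic factor, and Creld2 were not called either, with log2 fold changes of 0.10 (adjusted p = 0.148) and -0.10 (adjusted p = 0.259). Canx, Manf and Creld2 did not overlap between the groups, and their shifts did not pass the test.

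Of the 6 genes of disulfide formation, only Ero1l was called (16.7%, beside 44.9% of all genes tested). ERO1 oxidases restore the disulfide isomerases to their oxidized form. Ero1l (ENSMUSG00000021831.9, chromosome 14, 45283087 to 45318771) had 4043 and 3672 normalized counts in siCtl and 2881, 2534 and 2894 in siUpf1. It was the largest decrease among the UPR genes, to 71.8% of siCtl (DESeq2 log2 fold change -0.48 ± 0.067 SE, adjusted p = 8.54e-12). Its paralog Ero1lb was expressed at a far lower level, with 105 and 100.004 in siCtl and 119, 113 and 135 in siUpf1. These libraries were all higher than siCtl, but the difference did not pass the test (DESeq2 log2 fold change 0.26 ± 0.22 SE, adjusted p = 0.364). The disulfide isomerases themselves had log2 fold changes of 0.01 (Pdia3, DESeq2 adjusted p = 0.813), -0.09 (Pdia4, 0.199), 0.00 (Pdia6, 0.982) and 0.06 (P4hb, 0.231). The 95% interval of the log2 fold change of Pdia6 was -0.09 to 0.09. It rests on 2 siCtl libraries, and the SE rose from 0.047 to 0.087 with the replicate number as a factor.

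Of the 8 ERAD genes tested, 2 were called higher, 4 were called lower and 2 were not called. That is 75% called, beside 44.9% of all genes tested, of which 22.0% were higher and 22.9% lower. The difference in share was not tested. Sel1l (ENSMUSG00000020964.14, chromosome 12, 91806043 to 91849157), the adaptor that stabilizes the ubiquitin ligase HRD1 and brings substrates to it, had 2115 and 2050.1 normalized counts in siCtl and 3316, 3268 and 3279.5 in siUpf1. The siUpf1 libraries were within a narrow range, at 158% of siCtl (DESeq2 log2 fold change 0.66 ± 0.055 SE, adjusted p = 2.25e-31), the largest increase among the UPR genes. Syvn1, which encodes HRD1 itself, had 1019.9 and 1041 in siCtl and 909, 963 and 964 in siUpf1. It was lower in each siUpf1 library but not called (DESeq2 log2 fold change -0.13 ± 0.081 SE, adjusted p = 0.211).

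The EDEM proteins trim mannose from misfolded glycoproteins and so mark them for degradation. Edem3 had 1551 and 1443 normalized counts in siCtl and 2078, 1910.2 and 2131 in siUpf1, a rise with no overlap (DESeq2 log2 fold change 0.45 ± 0.071 SE, adjusted p = 1.69e-09). Edem2 moved the other way, with 1043 and 1019 in siCtl and 844, 876 and 763 in siUpf1 (DESeq2 log2 fold change -0.32 ± 0.088 SE, adjusted p = 9.92e-04). Edem1 was not called, with a log2 fold change of -0.04 (DESeq2 adjusted p = 0.562).

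The derlin genes Derl1 and Derl2 and the gene Herpud1 were called lower. Derl1, a derlin of the channel through which substrates leave the ER, had 4105 and 4318 normalized counts in siCtl and 3302, 3325 and 3253 in siUpf1. All siUpf1 libraries were near 78.2% of siCtl (DESeq2 log2 fold change -0.36 ± 0.051 SE, adjusted p = 3.93e-11). Derl2 had 1229 and 1169 in siCtl and 1031, 1032 and 1045 in siUpf1. Its fall was smaller (DESeq2 log2 fold change -0.21 ± 0.077 SE, adjusted p = 0.0159) and lost its call when any 1 of the 5 libraries was left out: siCtl replicate 1 (adjusted p = 0.214), siCtl replicate 3 (0.0689), or siUpf1 replicate 1 (0.0583), 2 (0.0525) or 3 (0.0617). Herpud1, a stress-induced membrane protein that assembles with HRD1, had 3779.96 and 3529 in siCtl and 2917, 3019.7 and 2859 in siUpf1. The groups were well apart (DESeq2 log2 fold change -0.32 ± 0.056 SE, adjusted p = 7.43e-08).

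The translocon admits new proteins to the ER. Sec61a1, its channel subunit, had 9881 and 9953 normalized counts in siCtl and 11294, 11829 and 11257 in siUpf1. All siUpf1 libraries were above siCtl by a small amount (DESeq2 log2 fold change 0.21 ± 0.042 SE, adjusted p = 2.93e-06). Sec61b, the small subunit, was not called (log2 fold change -0.02, DESeq2 adjusted p = 0.901) and its groups overlapped.

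Genes whose products act together were compared as ratios of read counts within a library, a quantity that no scaling between libraries can change. The 7 pairs were chosen after their values were seen, and the ratios restate these differences on that scale. Reads of Sel1l per read of Syvn1 were 2.07 and 1.97 in siCtl and 3.65, 3.40 and 3.40 in siUpf1. For Hyou1 over Hspa5, the chaperone BiP and its exchange factor, the ratios were 0.522 and 0.542 in siCtl and 0.771, 0.864 and 0.810 in siUpf1. The adaptor thus gained on its ligase, and the exchange factor on its chaperone, in every knockdown library.

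Edem3 over Edem2 was 1.49 and 1.42 in siCtl and 2.46, 2.18 and 2.79 in siUpf1. Ero1l over Ero1lb was 38.6 and 36.7 in siCtl and 24.2, 22.4 and 21.5 in siUpf1. Dnajc3 over Hspa5 was 0.0683 and 0.0685 in siCtl and 0.0928, 0.0912 and 0.0934 in siUpf1. For these 5 pairs the two-sided exact permutation test gave p = 0.1, the smallest p that 2 against 3 libraries allow. After Benjamini-Hochberg adjustment over the 7 ratios it was 0.14. This test cannot pass 0.05. Because the pairs were chosen after their values were seen, its p-values are no support for the differences. The ratio of Hsp90b1 to Hspa5 overlapped between the groups (exact permutation p = 0.5). Calr over Canx was 0.848 and 0.864 in siCtl and 0.751, 0.819 and 0.743 in siUpf1, lower without overlap (exact permutation p = 0.2).

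**Figure D4:**
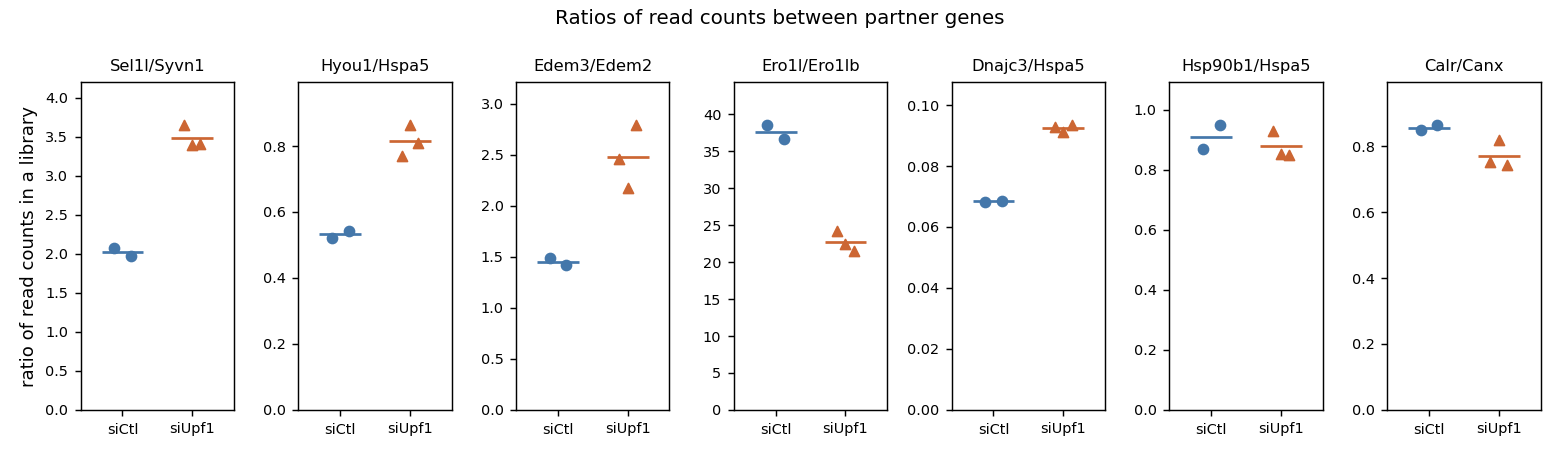
Ratio of the read counts of partner genes within each library (vertical axis, starting at 0 in each panel), with 1 panel per pair; circles are siCtl (n = 2), triangles siUpf1 (n = 3) and lines the group means. The siUpf1 ratios are higher for Sel1l/Syvn1, Hyou1/Hspa5, Edem3/Edem2 and Dnajc3/Hspa5, lower for Ero1l/Ero1lb and Calr/Canx, and overlap with siCtl for Hsp90b1/Hspa5.

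Other genes of the ER and of the stress response were examined as lists for context. Of 119 tested genes outside the 34, 76 were called, 25 higher and 51 lower, with a median log2 fold change of -0.09. That is 63.9%, beside 44.9% of all genes, which were not matched for level. The list of the PERK arm, which includes Eif2s1, the gene of eIF2α itself, had the lowest median. Of its 12 genes, 9 were lower, 2 higher and 1 not called, with a median of -0.35. Over all genes tested, 22.9% were called lower and 22.0% higher. The activity of PERK was not tested. Sesn2, a stress-induced repressor of TORC1 signaling, had a log2 fold change of -0.94 (from 4674 ± 130 to 2431 ± 118 normalized counts, SD, n = 2 and 3), and the transcription factor genes Cebpb and Atf3 had -0.80 and -0.73. Among 10 genes of sensor processing and ER-anchored factors, 6 were lower and 1 higher. Tmbim6, an ER membrane protein that restrains IRE1, fell by 0.65 on the log2 scale, and Mbtps2, a protease that cuts ATF6, and Creb3, an ER-anchored transcription factor, each fell by 0.32. The call of Creb3 was lost without siCtl replicate 1 (DESeq2 adjusted p = 0.0725) or 3 (0.237) and without siUpf1 replicate 2 (0.0801) or 3 (0.0961).

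Folding and degradation genes outside the 34 also moved both ways. The shares over all genes tested were 22.0% called higher and 22.9% lower. Among 20 other folding enzymes, 6 were higher and 3 lower (median 0.11). The prolyl isomerase gene Fkbp7 and the membrane thioredoxin gene Tmx1 had log2 fold changes of 0.75 and 0.64, and Erp44, which retains ERO1 in the ER, had -0.46. Among 17 other ERAD genes, 2 were higher and 9 lower (median -0.12). The lectin gene Erlec1, which delivers glycoproteins to SEL1L and HRD1, fell from 1953 ± 40.0 to 1005 ± 58.7 normalized counts (DESeq2 log2 fold change -0.96 ± 0.074 SE, adjusted p = 3.18e-36). The ubiquitin-conjugating enzyme gene Ube2j1 had a log2 fold change of -0.59. In these lists the lectin fell while Sel1l, which it contacts, rose.

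Lists for protein entry, glycosylation and exit followed, beside 22.0% of all genes tested called higher and 22.9% lower. Of 15 translocation and signal peptide genes, 5 were higher and 5 lower (median 0.07), with Ssr3 and Sec11a at 0.42 and Sec11c at 0.39, a translocon-associated subunit and the catalytic subunits of signal peptidase. Of 10 oligosaccharyltransferase genes, none was higher and 5 were lower (median -0.08), with Dad1 at -0.40, Stt3b at -0.21 and Rpn1 at -0.16. Of 13 genes of ER retrieval and COPII coats, 4 were higher and 7 lower (median -0.19). The coat paralogs parted, with Sec23b at -0.53 and Sec23a at 0.49, and the KDEL receptor gene Kdelr3 was at -0.58. The call of Kdelr3 was lost without siCtl replicate 1 (DESeq2 adjusted p = 0.195) or 3 (0.0585) and without siUpf1 replicate 3 (0.0989), and that of Rpn1 without siCtl replicate 3 (0.0676).

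Of 16 genes of ER membrane shape and the ER membrane complex (EMC), 4 were higher and 6 lower (median -0.09). The shares over all genes tested were 22.0% called higher and 22.9% lower. Emc3, a core EMC subunit that inserts membrane proteins, fell from 2822 ± 31.6 to 1305 ± 62.3 normalized counts (DESeq2 log2 fold change -1.11 ± 0.065 SE, adjusted p = 4.96e-64). The ER-shaping genes Atl3 and Rtn4 had -0.77 and -0.58. Of 6 mRNAs known as substrates of IRE1 cleavage, 1 was higher (Hgsnat, 0.39) and 1 lower (Sparc, -0.71), with a median of 0.00.

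**Figure D5:**
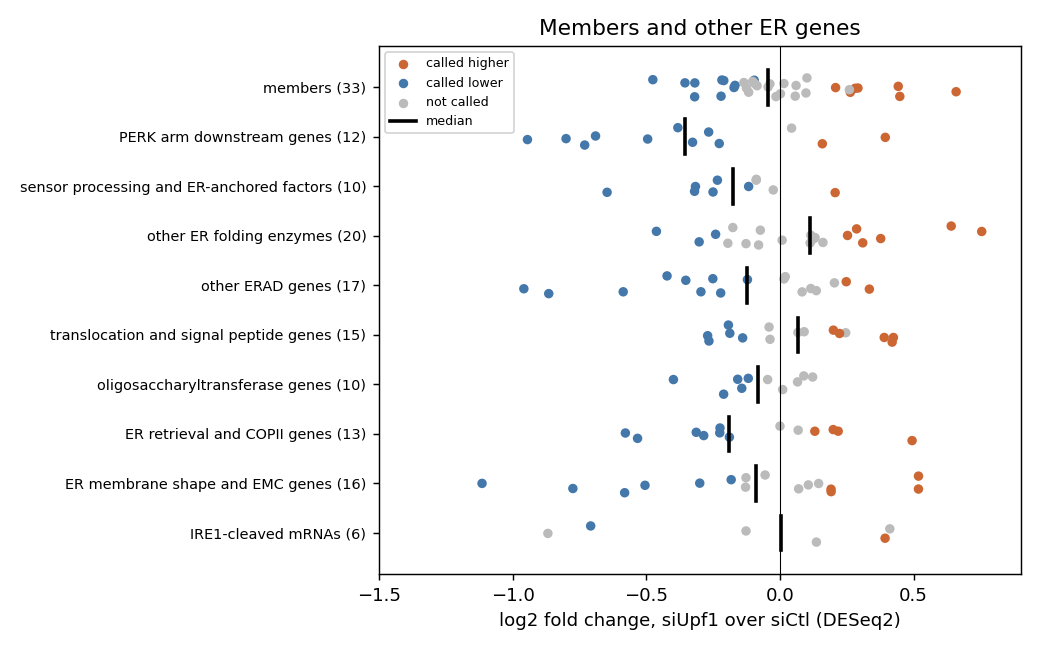
DESeq2 log2 fold change (siUpf1 over siCtl) of every tested UPR gene and of every tested gene in the other ER lists, 1 point per gene and 1 line per list with the number of genes in parentheses; orange and blue points are called higher and lower at an adjusted p under 0.05, and the black bar is the median. The PERK arm list, which includes Eif2s1, has the lowest median, at -0.35, while the UPR genes at the top lie on both sides of 0.

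The sequence match of the siRNA to these mRNAs was also counted. A 7-mer complementary to bases 2 to 8 of the guide strand (GATAATT) was present in the annotated 3′ untranslated regions of Canx, Atf6, Edem2 and Derl2, 4 of 33 tested genes, and in 7.72% of 12577 genes. The corresponding 7-mer for the other strand (AACCTTG) was present in Ern1 and Derl2 and in 9.88% of genes. Of these 5 genes, Atf6, Edem2 and Derl2 were called lower, beside 10 of the 33 tested UPR genes and 22.9% of all genes tested. The calls of Atf6 and Derl2 were lost when some library was left out. The part of the siRNA sequence in these calls was not tested.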

How the data were processed

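RNA-seq of poly(A) RNA from N2A cells (2 siCtl and 3 siUpf1 libraries) was analyzed. The authors deposited raw read counts per gene, which were not normalized. Submitters' processing notes name bcl2fastq 2.19.0, STAR 2.7.0f, featureCounts of Subread 1.6.4 and build GRCm38.p6, and the study's methods describe counting by strand over exons. Reads shared with near-identical copies may be lost in such counting. PCR duplicates cannot be recognized in counts.

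Counts were tested with DESeq2 1.42.0 (R 4.3.3, Wald test, siUpf1 against siCtl, independent filtering, Benjamini-Hochberg adjustment over all 15191 genes tested). DESeq2 and the threshold of 0.05 on the adjusted p, under which genes were called, follow the study's methods. Alternatives were edgeR 4.0.16, other size factors, filters, shrunken fold changes, a replicate block and omission of each library. Normalized counts are counts divided by DESeq2 size factors. The symbol Ddit3 has more than 1 identifier, and the one with reads was used. Exon lengths and positions came from GENCODE M21 of the same build.

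The UPR genes and all lists were chosen with earlier results of these data known. The rule named Upf1, all UPR genes, and up to 3 called genes per other list with the largest absolute log2 fold change and a mean of at least 100 normalized counts. It gave values in every library to the sensors, Xbp1 and called genes of at least 0.5 (log2). Such values of other genes were chosen after they were seen. March6 was not analyzed here. A gene that the rule selects is not reported here.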

Additional observations from a re-analysis of the deposited data

How the results depend on the processing

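Each of the 33 tested UPR genes was recomputed under 12 alternatives. Of the 396 values, 368 stayed on their side of the threshold, 28 lost the call and none of the called values changed sign. The shrunken fold changes kept the adjusted p of the main fit, so no call could change under that alternative. Among genes that were not called, Pdia3, Pdia6, Sdf2l1, Edem1 and Sec61b, all close to 0, changed sign in 11 of these values. Of the 17 called genes, 7 kept their call throughout (Sel1l, Hyou1, Edem3, Ero1l, Derl1, Herpud1 and Edem2), 6 lost it when some library was left out (Atf6, Calr, Derl2, Dnajb9, Dnajc10 and Hsp90b1), and 9 lost it under the replicate block. Beside Atf6, Calr, Derl2, Dnajb9 and Hsp90b1 these were Hspa5 (log2 fold change -0.18, DESeq2 adjusted p = 0.0698), Xbp1 (-0.23, 0.0668), Dnajc3 (0.27, 0.0653) and Sec61a1 (0.19, 0.0699). Under the replicate block, which uses the replicate number as a factor and leaves siUpf1 replicate 2 without a partner, 3919 of all genes were called, with 4 UPR genes higher, 4 lower, 13 genes of the other ER lists higher and 33 lower, and the median log2 fold change of the UPR genes was -0.0887. Deviations from the group means correlated at -0.09 for number 1 and -0.07 for number 3. With 2 siCtl libraries these deviations mirror each other, so the correlations cannot decide whether the numbers pair the libraries. With 1 library left out, 5 to 7 UPR genes were higher and 7 to 8 lower, their median was between -0.0883 (without siUpf1 replicate 2) and -0.0377, and 4767 to 6059 of all genes were called. When a siCtl library is left out, the lone control is assumed to vary like the other group. EdgeR called 8392 genes, with 7 UPR genes higher and 9 lower. The 2 siCtl libraries limit the precision of every value, and Ero1lb and Derl3 are limited by their low counts.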

Other observations

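Outside the UPR genes, 37 genes of the mouse genome had an ER stress element or element II in their RefSeq promoter sequence. Of these, 21 were tested in N2A cells, and 4 were called higher and 5 lower (42.9%, beside 44.9% of all genes), with a median log2 fold change of -0.01. This count was added after the values of the UPR genes were seen.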
